A study of Microtus ochrogaster with 40 samples.

Results

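Glypicans are heparan sulfate proteoglycans held at the cell surface by a lipid anchor, and the vole gene set lists 6 of them, Gpc1 to Gpc6, among 19130 genes. They were taken by their symbols, with the identifiers ENSMOCG00000000952 (Gpc1), ENSMOCG00000022440 (Gpc2), ENSMOCG00000019423 (Gpc3), ENSMOCG00000012439 (Gpc4), ENSMOCG00000011002 (Gpc5) and ENSMOCG00000022265 (Gpc6). The family was selected on the measured all-nuclei level of Gpc4, which differed between female mates and female peers in these same libraries, so the female pairing difference of Gpc4, in all nuclei and in each class, is given here as a description without a test. Single-nucleus RNA was measured in the nucleus accumbens, a part of the ventral striatum, of 40 prairie voles (Microtus ochrogaster), a rodent that forms lasting pair bonds. Each library came from 1 animal that had lived for 16 days either with an opposite-sex partner, called a mate, or with a same-sex partner, called a peer. There were 11 female mates and 8 female peers, and 11 male mates and 10 male peers. No treatment, transgene or age is used to define a group, and animals without a partner are not analysed here. Partners are not named in the labels, so cage mates that may depend on each other could not be tied together. All 6 genes had UMIs, the counted molecules, and all 6 passed the filter on low counts when the nuclei of a library were summed.

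A glypican carries heparan sulfate chains on a folded protein core and binds growth factors, morphogens and synaptic receptors through both. Gpc4 and Gpc6 are released by astrocytes and promote the formation of excitatory synapses by recruiting AMPA receptors. Gpc4 also binds the receptors Ptprs, Lrrtm4 and Gpr158 at synapses. Gpc5 is an astrocyte glypican of the mature brain, Gpc1 and Gpc2 are neuronal glypicans that bind guidance and growth factors in axons, and Gpc3 restrains hedgehog signalling in development. In the RefSeq annotation of assembly MicOch1.0, Gpc4 lies next to Gpc3 on chromosome X, and Gpc5 lies next to Gpc6 on chromosome 17.

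After filtering, 178387 nuclei were kept, with 1767 to 7666 per library and a median of 653 to 2190 UMIs per nucleus. They fell into 26 clusters, which gave 14 classes named from their markers and 4 clusters (7, 8, 17 and 25) that stayed unnamed. A class called X-like was named from markers rather than from a deposited annotation. Glutamate neuron-like nuclei made up 19.1% of nuclei, D1 and D2 medium spiny neuron-like nuclei 17.8% and 14.8%, and astrocyte-like nuclei 10.1%. The nucleus accumbens itself holds few glutamate neurons, and the labels do not say from where the glutamate neuron-like nuclei came. Cluster 17, 1.29% of nuclei, was led by genes of motile cilia (Cfap43, Dynlrb2, Dnah11) together with Gfap, and stayed unnamed because ependymal and astrocyte markers were both high in it. The parvalbumin interneuron-like class was led by Crabp1, Trh and Kit, and Pvalb was higher in unnamed cluster 8 (115 CPM) than in it (76.5 CPM). Male mate 2 had the lowest median of UMIs per nucleus and gave all 6375 barcodes with fewer than 500 UMIs. It had 36.2% of its UMIs in glutamate neuron-like cluster 4. Male peer 5 had 0.746% of its UMIs in glutamate neuron-like nuclei. Values without these 2 libraries are given where they move a difference between groups. Pairs of libraries shared 2 to 146 barcodes, at most 2.22% of the smaller library.

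The glypicans were carried by different classes of nuclei. Levels are given in CPM, the UMIs of a gene per 1000000 UMIs of the same nuclei, as the mean over animals with at least 20 nuclei of the class. Gene length was not taken into account, so levels are compared between classes within a gene and not between genes. A value after ± is the SD over animals, and a group value covers every animal of the group unless another n is given. Neighbours in the order of classes are said to differ beyond their spread where the gap between their means exceeded the larger of their SDs over animals, and only classes with at least 24 such animals were ordered. This rule does not pair the classes of an animal, so classes within their spread may still differ in most animals.

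Gpc5 was the glypican of astrocyte-like nuclei. Its level there was 893 ± 179 CPM (SD, n = 39 animals), with a range of 449 to 1300 CPM, and these nuclei held 85.6% of its 15828 UMIs. The next classes were unnamed cluster 17 at 83.1 ± 57.3 CPM (SD, n = 34) and somatostatin interneuron-like nuclei at 63.6 ± 41.2 CPM (SD, n = 31). The gap below astrocyte-like nuclei and the gap below somatostatin interneuron-like nuclei were beyond the spread, whereas cluster 17 and the somatostatin interneuron-like class did not differ beyond theirs. In the other ordered classes Gpc5 was between 2.09 and 21.9 CPM.

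Gpc4 was highest in unnamed cluster 17, at 233 ± 103 CPM (SD, n = 34), and in astrocyte-like nuclei, at 145 ± 48.1 CPM (SD, n = 39), which did not differ beyond their spread. The only gap in the order of Gpc4 that was beyond the spread lay below astrocyte-like nuclei. After it came immature neuron-like nuclei at 52.3 ± 33.8 CPM, somatostatin interneuron-like nuclei at 50.7 ± 51.3 CPM, glutamate neuron-like nuclei at 43.9 ± 11.2 CPM, oligodendrocyte precursor-like nuclei at 38.6 ± 20.2 CPM, endothelial-like nuclei at 32.9 ± 22.0 CPM and mature oligodendrocyte-like nuclei at 31.0 ± 15.9 CPM. D1, D2 and eccentric medium spiny neuron-like nuclei were at 2.63, 2.11 and 2.15 CPM. Glutamate neuron-like nuclei held 25.1% of all UMIs and 45.3% of the 8221 Gpc4 UMIs, against 27.3% in astrocyte-like nuclei and 6.87% in cluster 17. Within the glutamate neuron-like class the gene was concentrated in cluster 5 (led by SLC30A3, C1ql3 and Ndst4), with 66.6 CPM over the summed libraries and 35.8% of all Gpc4 UMIs. Cluster 4 (led by Ccn3 and Cck) was at 40.0 CPM, cluster 20 (led by Nr4a2) at 25.4 CPM and cluster 9 (led by Rxfp2 and Col5a1) at 4.87 CPM.

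Gpc6 was spread over neurons and glia. It was at 91.4 ± 34.7 CPM (SD, n = 26) in cholinergic interneuron-like nuclei, 86.8 ± 34.6 CPM (SD, n = 39) in the parvalbumin interneuron-like class, 71.9 ± 23.4 CPM in astrocyte-like and 71.1 ± 30.9 CPM in oligodendrocyte precursor-like nuclei. No neighbours in its order differed beyond their spread. The lowest levels were 7.93 CPM in glutamate neuron-like, 7.92 CPM in endothelial-like, 5.41 CPM in microglia-like and 2.44 CPM in mature oligodendrocyte-like nuclei. D1 and D2 medium spiny neuron-like nuclei, at 24.8 and 29.6 CPM, held 21.4% of the 8482 Gpc6 UMIs each. The highest single clusters in the summed libraries were cluster 16 (parvalbumin interneuron-like, 87.6 CPM), cluster 21 (cholinergic interneuron-like, 83.4 CPM) and, above them, unnamed cluster 25, led by cell-cycle genes (Ect2, Mki67), where the value of 113 CPM rests on 13 UMIs in 79 nuclei.

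Gpc1 was detected in every class. It was highest in immature neuron-like nuclei, at 249 ± 70.3 CPM (SD, n = 39), and then in cholinergic interneuron-like nuclei, at 171 ± 58.5 CPM (SD, n = 26), and this gap was beyond the spread. D1 and D2 medium spiny neuron-like nuclei were at 112 ± 15.0 and 112 ± 13.9 CPM, which is within their spread, and held 25.8% and 21.2% of its 32139 UMIs. Glutamate neuron-like nuclei were lower, at 71.7 ± 11.9 CPM. Microglia-like nuclei were lowest, at 17.4 ± 19.1 CPM, beyond the spread below mature oligodendrocyte-like nuclei at 60.7 ± 33.2 CPM.

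Gpc2 was highest in immature neuron-like nuclei, a class led by Igfbpl1 and cell-cycle genes such as Mki67. Its level was 117 ± 52.1 CPM (SD, n = 39) there, and 47.9% of its 866 UMIs came from this class, which was 1.94% of nuclei. Cluster 17 followed at 27.1 ± 22.2 CPM, beyond the spread, and then microglia-like nuclei at 18.0 ± 16.2 CPM, oligodendrocyte precursor-like nuclei at 16.1 ± 13.2 CPM and astrocyte-like nuclei at 8.98 ± 6.31 CPM. All other ordered classes were at 1.68 CPM or less, and the gap above them was beyond the spread. Gpc3 was the most sparsely counted member, with 367 UMIs over all libraries. It was at 10.5 ± 14.4 CPM (SD, n = 37) in endothelial-like nuclei and 6.73 ± 6.61 CPM (SD, n = 40) in unnamed cluster 8 (led by Vip, Elfn1 and Kcnc2), which held 39.0% of its UMIs, and no gap in its order was beyond the spread.

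**Figure D1:**
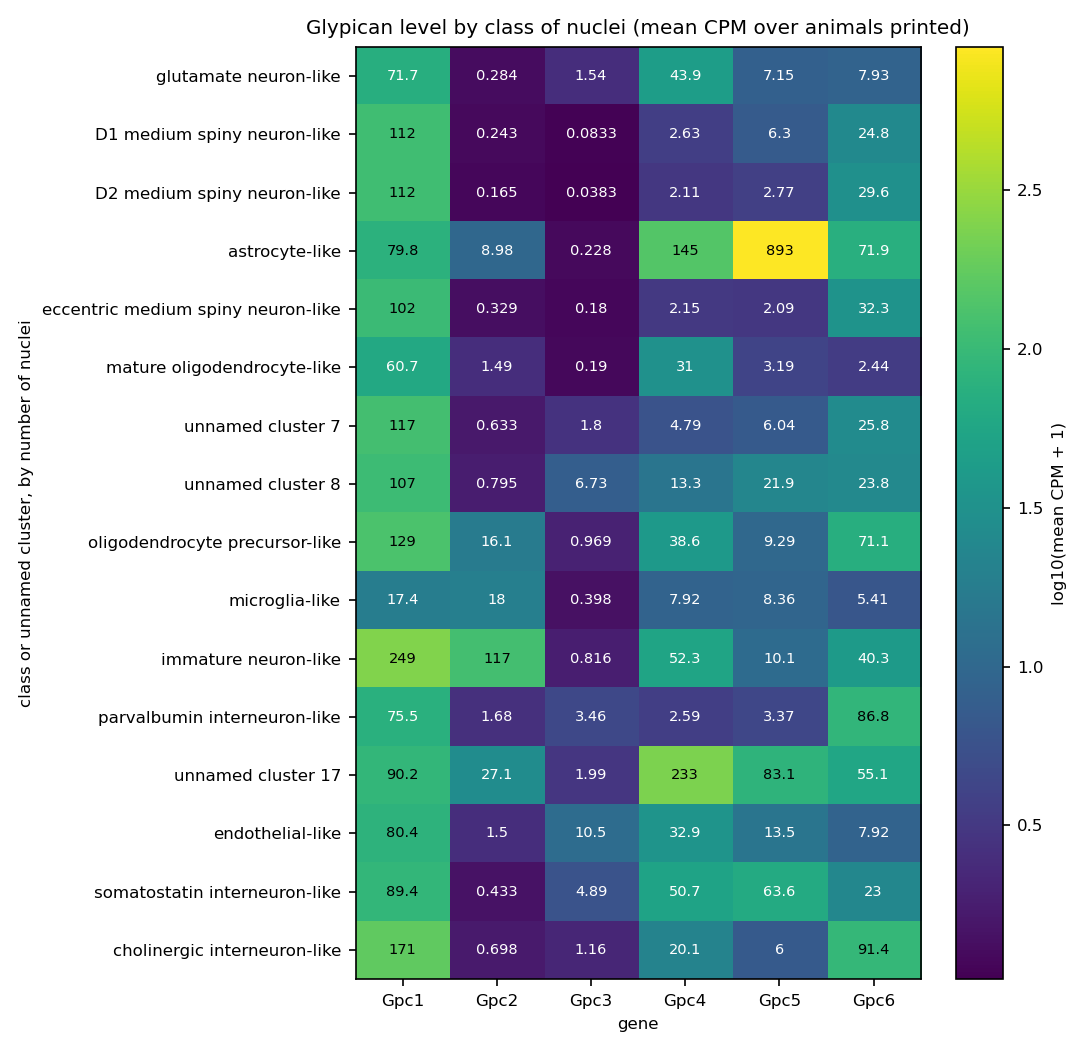
Mean CPM over animals (number in each cell) of the 6 glypicans (columns) in the 16 ordered classes and unnamed clusters (rows, by number of nuclei), coloured by log10 of the mean CPM plus 1. Gpc5 stands at 893 CPM in astrocyte-like nuclei, Gpc2 at 117 CPM in immature neuron-like nuclei and Gpc4 at 233 CPM in cluster 17 and 145 CPM in astrocyte-like nuclei; columns are not comparable with each other.

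Free RNA in the droplets can add UMIs of a gene to nuclei that do not express it, and its amount was not measured here. The summed level of 9 astrocyte markers was 1076 to 1227 CPM over the group means in glutamate neuron-like nuclei, against 30655 to 33208 CPM in astrocyte-like nuclei. This sum also holds any RNA of these markers made by the glutamate neuron-like nuclei themselves, so it does not measure free RNA. Gpc5 was 7.15 ± 4.93 CPM (SD, n = 40) in glutamate neuron-like nuclei, against 893 CPM in astrocyte-like nuclei. Gpc4 was 43.9 CPM in glutamate neuron-like nuclei, against 145 CPM in astrocyte-like nuclei. Astrocyte-like nuclei held 13549 UMIs of Gpc5 and 2242 of Gpc4. The part of free RNA in these levels was not tested.

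Over the 14 named classes, the class means of Gpc4 and Gpc5, as log2(CPM + 1), had a Pearson r of 0.76, and the next highest r between members was 0.48, between Gpc2 and Gpc4. These points share their libraries, and the correlation is a description. The 14 classes include the differentiating oligodendrocyte-like one, whose means rest on 2 animals with 0 CPM of Gpc2 to Gpc6. By the same measure, among 12998 genes with at least 10 CPM in a class, the genes most like Gpc4 were Nectin3 (r = 0.880), Thbs1 (r = 0.871) and Psph (r = 0.846), and those most like Gpc5 were Npnt (r = 0.957), Gdpd2 (r = 0.956) and 1190005I06Rik (r = 0.932). The closest to Gpc1 were Tmem138 (r = 0.912) and Lrch2 (r = 0.889), to Gpc2 Ehmt1 (r = 0.964), Nup54 (r = 0.959) and Nasp (r = 0.935), to Gpc3 Pde5a (r = 0.923), Lox (r = 0.887) and Abcf1 (r = 0.872), and to Gpc6 Dgat1 (r = 0.939), Pusl1 (r = 0.930) and Zkscan2 (r = 0.925).

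When all nuclei of a library were summed, Gpc4 was lower in female mates than in female peers. Female mates ranged from 15.1 to 24.1 CPM with a median of 17.5 CPM, and female peers from 18.9 to 42.7 CPM with a median of 31.6 CPM. All 11 mates lay below the mean of the peers, 7 of them below the lowest peer, and 6 of 8 peers lay above the highest mate, so that the groups overlapped only in their tails. The means were 18.8 ± 3.07 CPM and 30.7 ± 8.00 CPM, a log2 fold change of -0.70 (SE 0.16). In a sum over all nuclei, fewer nuclei of a type and less RNA of the gene per nucleus cannot be told apart.

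In males, whose values did not enter the choice of the gene, the groups overlapped over most of their range. Male mates ranged from 19.0 to 33.1 CPM with a median of 23.3 CPM, and male peers from 12.5 to 48.0 CPM with a median of 29.4 CPM. The means were 25.6 ± 5.43 CPM and 28.0 ± 9.66 CPM, and 6 of 11 mates lay below the mean of the peers. The log2 fold change was -0.13 (SE 0.15), with a p of 0.382 and an adjusted p of 0.999 by edgeR's quasi-likelihood test with Benjamini-Hochberg adjustment. The lowest and the highest of the 21 males were both peers, male peer 5 at 12.5 CPM and male peer 8 at 48.0 CPM, and without each of them in turn the log2 fold change was -0.22 and -0.02. It was -0.077 with a term for blocks of 10 label numbers. The pairing difference of Gpc4 in females minus that in males was -0.56 (SE 0.22) on the log2 scale, which is a description because it contains the female values.

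Averaged over pairing types, Gpc4 had a log2 fold change of -0.16 (SE 0.11) for female minus male, which contains the female values that chose the family and is a description, and which was -0.10 without male peer 8. Its X-linked neighbour Gpc3 was not called between the sexes (0.09, SE 0.26, adjusted p = 0.937 by edgeR). Among all 13718 genes tested, edgeR called 2 between the sexes (0.0146%), which were Kdm5c and Kdm6a, and 8.18% had an unadjusted p under 0.05. Of the 5 glypicans other than Gpc4, 0 were called in this contrast by edgeR and 0 had an unadjusted p under 0.05.

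**Figure D2:**
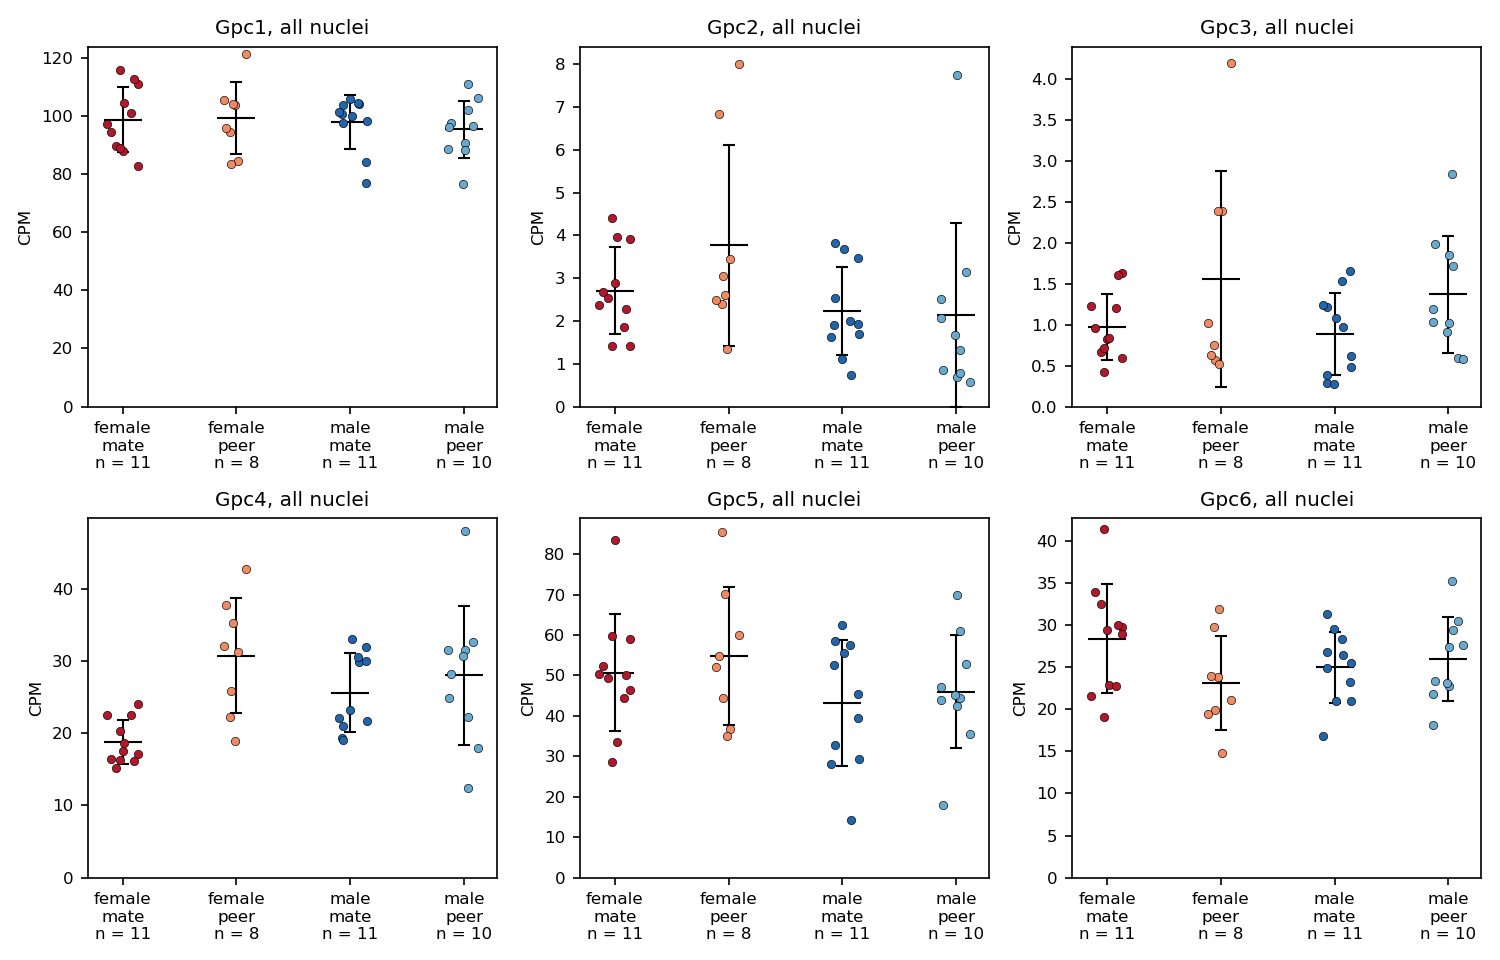
CPM of each glypican in all kept nuclei of a library (vertical axis) by group; points are animals, and bars are the mean and SD. Female mates sit at 15.1 to 24.1 CPM of Gpc4 and female peers at 18.9 to 42.7 CPM. The groups of the other genes overlap in both sexes, but Gpc2 and Gpc3 reach 8.00 and 4.19 CPM in female peers against 4.42 and 1.63 CPM in female mates.

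The other 5 glypicans showed no called pairing difference in all nuclei. In females, 0 of 13718 genes were called (0%) by edgeR and 0 by DESeq2, and 7.6% had an unadjusted p under 0.05 by edgeR. Of the 5 glypicans other than Gpc4, 1 had an unadjusted p under 0.05, which was Gpc6, higher in mates. Female mates had 19.1 to 41.4 CPM of Gpc6 with a median of 29.4 CPM and female peers 14.8 to 31.9 CPM with a median of 22.5 CPM, so that the groups overlapped. The log2 fold change was 0.30 (SE 0.14), with a p of 0.0339 and an adjusted p of 0.650 by edgeR. Gpc1 had nearly the same level in all groups, at 98.7 ± 11.1, 99.1 ± 12.4, 97.9 ± 9.14 and 95.3 ± 9.91 CPM in female mates, female peers, male mates and male peers, with log2 fold changes between mates and peers of 0.01 (SE 0.08) in females and 0.03 (SE 0.08) in males. Gpc5 was at 50.7 ± 14.4 CPM in female mates and 54.8 ± 17.0 CPM in female peers (log2 fold change -0.11, SE 0.20, adjusted p = 0.893 by edgeR), which was -0.0029 without female peer 4.

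In males, 0 genes (0%) were called by edgeR and 0 by DESeq2, and 1.41% had an unadjusted p under 0.05 by edgeR. Of the 6 glypicans 0 were called and 0 had an unadjusted p under 0.05. The lowest p was that of Gpc3, at 0.887 ± 0.500 CPM in mates and 1.37 ± 0.712 CPM in peers (log2 fold change -0.65, SE 0.36, p = 0.0752, adjusted p = 0.999 by edgeR). In females the same gene had a log2 fold change of -0.57 (SE 0.37), which was -0.21 without female peer 3, the library with the highest value (4.19 CPM). Gpc2 in males had a log2 fold change of 0.00 (SE 0.38), which rested on male peer 8, at 7.75 CPM against 3.14 CPM in the next male peer, and was 0.50 without it. For the pairing difference in females less that in males, edgeR and DESeq2 called 0 genes (0%), 1.95% had an unadjusted p under 0.05 by edgeR, and of the 5 glypicans other than Gpc4 the lowest p was that of Gpc6 (log2 difference 0.36, SE 0.19, p = 0.0570, adjusted p = 1.00).

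The all-nuclei difference of Gpc4 was then divided among the classes. The Gpc4 UMIs of a class per 1000000 UMIs of the whole library sum over classes to the all-nuclei level, so the difference of the group means can be given class by class. In females these contributions summed to -11.96 CPM, mate minus peer. Glutamate neuron-like nuclei contributed -5.77 CPM, 48.2% of the difference, astrocyte-like nuclei -2.80 CPM (23.4%) and unnamed cluster 17 -1.82 CPM (15.2%). Unnamed cluster 8 contributed -0.762 CPM (6.37%), and each of the other classes less than 3% of the difference. Single peers weighed on the smaller of these values. Astrocyte-like nuclei contributed -1.81 CPM (16.0%) without female peer 7, cluster 17 -0.807 CPM (7.36%) without female peer 8 and cluster 8 -0.272 CPM (2.66%) without female peer 3. The contribution of cluster 17 was 1.28 ± 1.07 CPM in female mates and 3.1 ± 3.28 CPM in female peers. Within the glutamate neuron-like class, cluster 5 contributed -4.39 CPM and cluster 4 -1.45 CPM.

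Each contribution changes both with the level of the gene in the class and with the share of the library's UMIs that the class holds. Taking the level difference at the mean UMI share of both groups and the share difference at the mean level, 63.6% of the female difference was in the levels and 36.4% in the shares, and with clusters in place of classes it was 56.3% and 43.7%. In glutamate neuron-like nuclei the level part was -3.89 CPM and the share part -1.87 CPM. Split by cluster, the level and share parts were -2.18 and -2.20 CPM in cluster 5 and -0.839 and -0.614 CPM in cluster 4. In clusters 9 and 20 both parts were between -0.0386 and 0.0804 CPM. The level part of the class thus also holds shifts of UMIs between its clusters, which differed in Gpc4. The UMI share of the glutamate neuron-like class was 22.5 ± 8.86% in female mates and 27.0 ± 9.51% in female peers. It reached 39.8% in female peer 1, so the share part of the class leaned on single peers. In astrocyte-like nuclei the level and share parts were -2.12 and -0.679 CPM, and -1.30 and -0.509 CPM without female peer 7. The share part there also leaned on female peer 4, which had 6.95% of its UMIs in this class. The mean share was 4.98% in female peers and 4.50% in female mates. In cluster 17 the share part was the larger, at -1.27 CPM against -0.549 CPM, since this cluster held 0.621 ± 0.408% of UMIs in female mates and 1.16 ± 0.893% in female peers. Without female peer 8 these parts were -0.780 and -0.026 CPM.

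In males the contributions summed to -2.39 CPM, and all those named here moved by over 1.5 times without some single library. The sum lay between -4.11 CPM and -0.164 CPM with 1 male left out at a time. Glutamate neuron-like nuclei contributed -1.20 CPM, with a range of -2.73 CPM without male peer 5 to -0.116 CPM without male peer 8, and -2.53 CPM without male mate 2. Other males that moved it by over 1.5 times were male mate 3 (-0.314 CPM without it) and male peer 9 (-0.454 CPM). Cluster 5 contributed -2.28 CPM, which was -3.54 CPM without male peer 5, -1.18 CPM without male peer 8 and -1.43 CPM without male peer 9. Cluster 4 contributed 1.12 CPM, almost wholly as a share part (1.07 CPM), but -0.496 CPM without male mate 2, which had 36.2% of its UMIs in this cluster against a median of 4.08% in male mates. Cluster 17 contributed -0.598 CPM, which was -0.387, -0.361 and -0.324 CPM without male peers 1, 7 and 8. Astrocyte-like nuclei contributed 0.254 CPM, a value that ranged from -0.335 CPM without male peer 2 to 0.946 CPM without male mate 2.

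**Figure D3:**
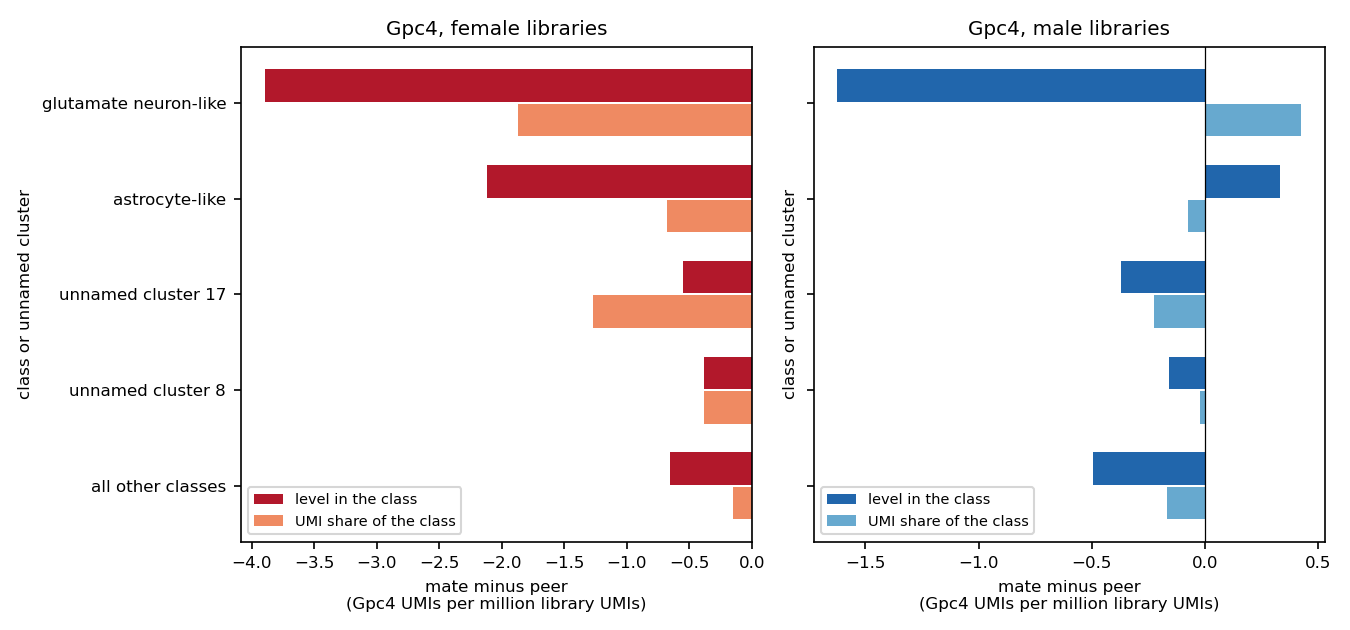
Mate-minus-peer difference in Gpc4 UMIs per 1000000 library UMIs (horizontal axis) by class, split into the part from the level in the class (dark) and the part from the UMI share of the class (light), for female (left) and male (right) libraries, with the smaller classes summed; the horizontal scales differ. In females the level parts of glutamate neuron-like and astrocyte-like nuclei, -3.89 and -2.12 CPM, are the longest bars. The level part of glutamate neuron-like nuclei also holds shifts of UMIs between their clusters.

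Within glutamate neuron-like nuclei, Gpc4 in female mates ranged from 27.4 to 45.9 CPM with a median of 34.1 CPM, and in female peers from 36.2 to 60.8 CPM with a median of 48.8 CPM. All 11 mates lay below the mean of the peers and 7 below the lowest peer. The means were 34.2 ± 6.06 CPM and 49.8 ± 8.85 CPM, a log2 fold change of -0.55 (SE 0.13), from 746 and 793 UMIs. In males the values were 25.2 to 55.1 CPM with a median of 45.3 CPM in mates and 15.2 to 64.4 CPM with a median of 48.5 CPM in peers. The male log2 fold change was -0.21 (SE 0.12), with a p of 0.0753 and an adjusted p of 1.00 by edgeR. No male mate lay below the lowest male peer, male peer 5, but that value rests on 1 Gpc4 UMI. Without this library, 6 of 11 male mates lay below the lowest peer (45.9 CPM), and the log2 fold change was -0.23. For female minus male, averaged over pairing types, the log2 fold change in these nuclei was -0.23 (SE 0.09), a description because it contains the female values that chose the family.

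Both main clusters of the class had this direction in females. In cluster 5, Gpc4 was at 54.8 ± 9.95 CPM in female mates and 69.7 ± 12.9 CPM in female peers, and at 68.2 ± 14.7 CPM and 82.5 ± 24.6 CPM (n = 9) in male mates and male peers. In cluster 4 the female values were 28.3 ± 14.9 and 49.2 ± 12.2 CPM, and the male values 39.7 ± 17.0 and 48.7 ± 15.5 CPM (n = 9 for male peers). Cluster 9, where the gene was low, was between 3.64 and 5.64 CPM in the group means.

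Astrocyte-like nuclei showed the female difference and not a male one of the same direction. Female mates lay close together, from 105 to 153 CPM with a median of 117 CPM, whereas female peers ranged from 98.0 to 266 CPM with a median of 154 CPM. All 11 mates lay below the mean of the peers and 4 of 8 peers above the highest mate, but no mate lay below the lowest peer. The means were 119 ± 13.0 CPM and 163 ± 51.8 CPM, with a log2 fold change of -0.48 (SE 0.20). Male mates were at 158 ± 32.7 CPM (n = 10) and male peers at 146 ± 71.4 CPM, with a log2 fold change of 0.04 (SE 0.19, adjusted p = 1.00 by edgeR), which ranged over the alternatives from -0.0062 at a clustering resolution of 2 to 0.17 with blocks of label numbers. The pairing difference in females less that in males was -0.52 (SE 0.27) in this class, again as a description. Gpc5, with its UMIs mostly in the same nuclei, was at 972 ± 186 CPM in female mates and 914 ± 143 CPM in female peers, a log2 fold change of 0.05 (SE 0.13, p = 0.708, adjusted p = 0.980 by edgeR; 0.15 at a clustering resolution of 2), and the difference between the genes was not tested.

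In cluster 17 the values were few and scattered. Female mates ranged from 0 to 352 CPM with a median of 218 CPM (n = 10) and female peers from 133 to 447 CPM with a median of 221 CPM (n = 7), on 106 and 190 UMIs. The log2 fold change was -0.35 (SE 0.29) in females and -0.28 (SE 0.29, p = 0.336, adjusted p = 1.00 by edgeR) in males, and in males it was -0.14 without male peer 8 and -0.014 with a term for blocks of 10 label numbers. As a log2 ratio of the group means, the female value was -0.36, and single libraries moved it to -0.15 (without female peer 8) and -0.21 (without female mate 7, which had no Gpc4 UMI). The male ratio was -0.27, and it was -0.12, -0.17 and -0.15 without male mate 5, male peer 7 and male peer 8. For all 18 classes and clusters, the level was taken as a group's mean contribution over its mean UMI share, with no minimum of nuclei. By this measure Gpc4 was lower in female mates in 15, higher in 2 (D2 and eccentric medium spiny neuron-like) and without a UMI in 1. In males it was lower in mates in 12 and higher in 6. The sign depends on the measure where differences are small. Immature neuron-like nuclei were at 46.6 CPM in female mates and 56.1 CPM in female peers by this measure. Yet only 5 of 11 female mates lay below the mean over peers there.

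**Figure D4:**
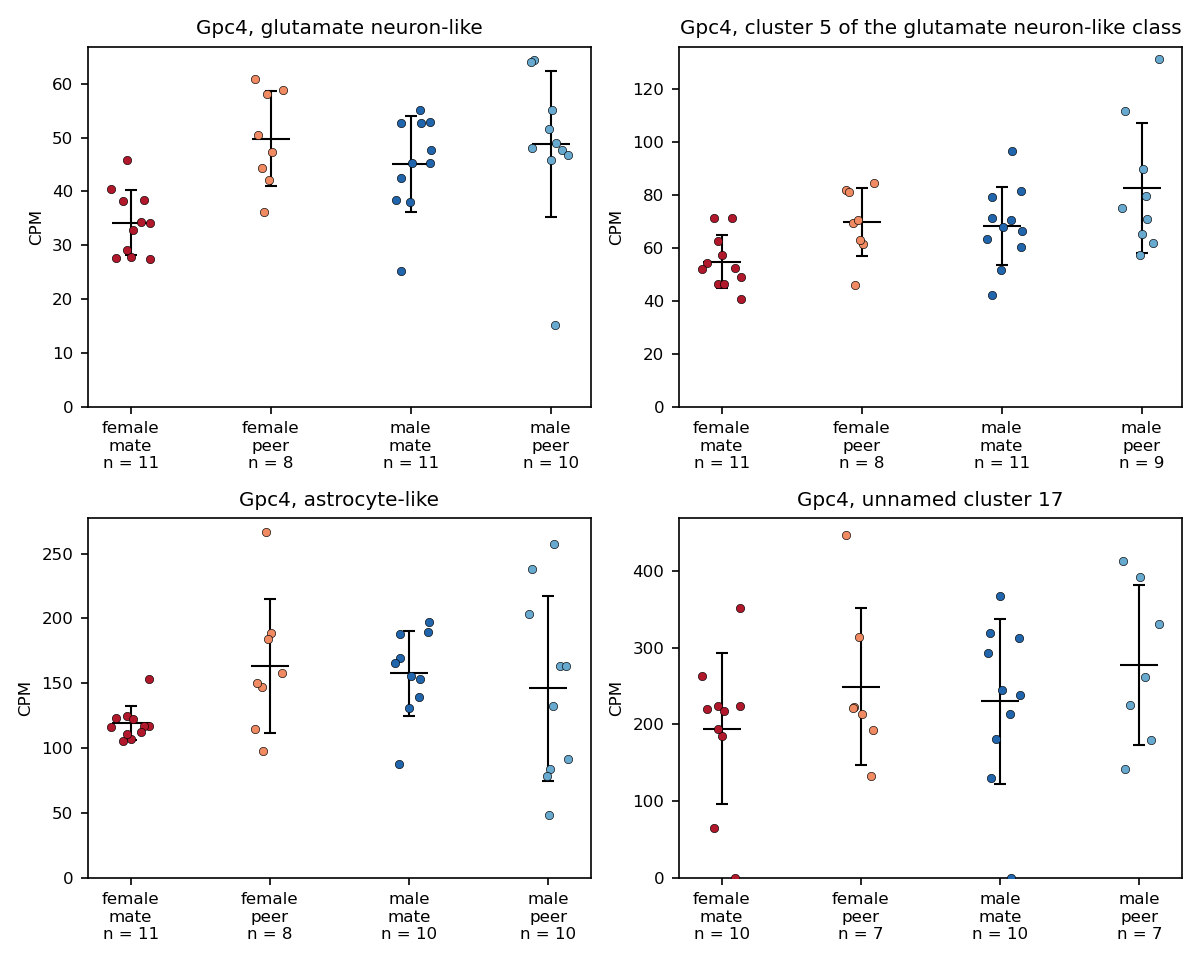
Gpc4 CPM (vertical axis) per animal by group in glutamate neuron-like nuclei, in their cluster 5, in astrocyte-like nuclei and in unnamed cluster 17; points are animals with at least 20 such nuclei, and bars are the mean and SD. Female mates have the lowest mean in each panel, at 34.2, 54.8, 119 and 194 CPM.

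To set the makeup of nuclei equal, the class levels of each library were combined with the same weights, the mean UMI share of each class over the 40 libraries, for the 15 classes and clusters present in every library. Cluster 17, cluster 25 and the differentiating oligodendrocyte-like class were left out of this sum. At this fixed makeup Gpc4 was 19.0 ± 2.33 CPM in female mates and 25.9 ± 4.60 CPM in female peers, a difference of -6.90 CPM or -26.6%. Over the same 15 classes and clusters at their observed makeup it was 17.6 ± 2.66 CPM and 28.0 ± 6.76 CPM, a difference of -37.0%, against -38.9% over all nuclei. In males it was 23.3 ± 3.67 CPM and 25.2 ± 5.30 CPM, a difference of -1.85 CPM (two-sided permutation test with 100000 resamples, p = 0.357), and the observed male difference had a p of 0.561 over the same units and of 0.501 over all nuclei by the same permutation test. Leaving out 1 male at a time moved the male difference between -2.90 CPM, without male peer 5, and -1.11 CPM, without male peer 8. It was -1.22 CPM without male mate 2, which enters with an astrocyte-like level of 0 CPM from 12 nuclei. Over the same 15 units, the SD of male peers was 8.47 CPM at the observed makeup and 5.30 CPM at the fixed one, and that of female peers 6.76 and 4.60 CPM; over all nuclei the observed SDs were 9.66 and 8.00 CPM.

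**Figure D5:**
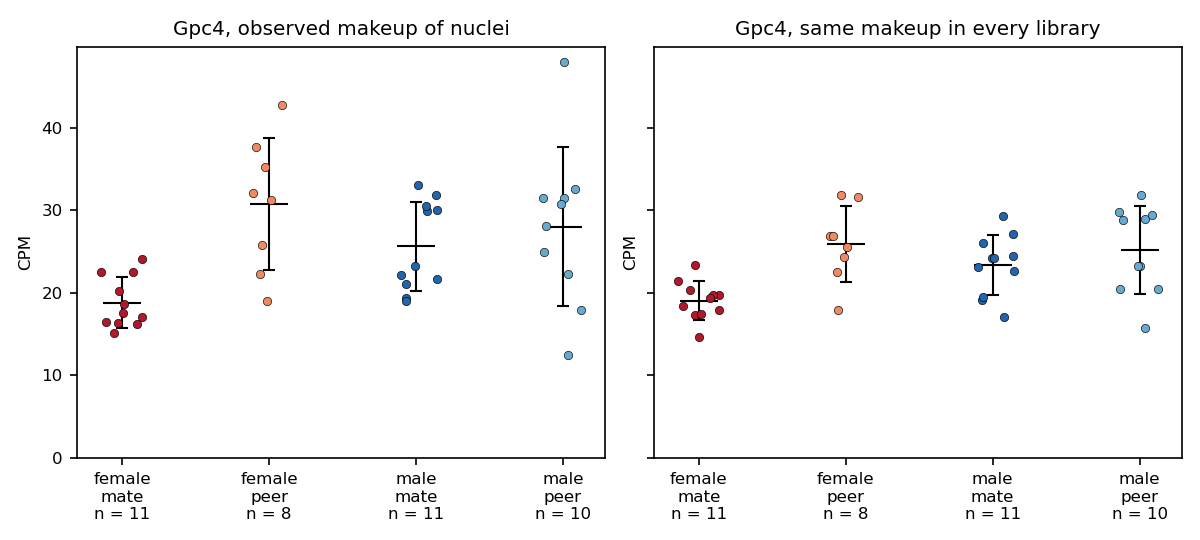
Gpc4 CPM (vertical axis) per animal by group at the observed makeup of all nuclei (left) and with the same class weights in every library (right, without cluster 17 and 2 small units, which the left panel holds); points are animals, and bars are the mean and SD. The female group means are 18.8 and 30.7 CPM on the left and 19.0 and 25.9 CPM on the right.

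Markers of several classes had lower means in female mates, and some of them also in male mates. Summed over all nuclei, 7 of 7 glutamate neuron markers had a lower mean in female mates than in female peers (sums of 303 to 915 CPM in mates and 345 to 1031 CPM in peers), as did 8 of 9 astrocyte markers (1714 to 2568 CPM and 2121 to 2979 CPM) and 6 of 6 ependymal markers (5.28 to 19.4 CPM and 10.3 to 31.5 CPM). Lower in mates were also 8 of 8 mature oligodendrocyte markers (1128 to 3144 CPM and 1629 to 3696 CPM) and 9 of 10 microglia markers (166 to 639 CPM and 230 to 861 CPM, with Siglech at 0 in peers), while 0 of 7 D2 medium spiny neuron markers were. Inside glutamate neuron-like nuclei, 1 of 7 glutamate neuron markers had a lower mean in female mates, with sums of 1961 to 3008 CPM in mates and 1969 to 2944 CPM in peers. Lower means were also found for 3 of 9 astrocyte markers, 7 of 8 mature oligodendrocyte markers (171 to 701 CPM and 151 to 1152 CPM) and 6 of 6 ependymal markers (1.21 to 5.60 CPM and 1.32 to 6.95 CPM). The mature oligodendrocyte sum in these nuclei had means of 336 ± 158 CPM in female mates and 369 ± 360 CPM in female peers. Its medians went the other way, at 311 CPM in mates and 203 CPM in peers. Inside astrocyte-like nuclei, 9 of 9 astrocyte markers were lower in female mates, with sums of 24805 to 36051 CPM in mates and 27003 to 38721 CPM in peers. Of the ependymal markers, 2 of 6 were lower there, with sums of 0 to 27.7 CPM in mates and 15.1 to 34.2 CPM in peers with Ccdc153 and Tmem212 at 0 in both groups. In males, 1 of 7 glutamate neuron markers, 5 of 9 astrocyte markers and 6 of 6 ependymal markers had lower means in mates in all nuclei, as did 8 of 8 mature oligodendrocyte markers (726 to 3603 CPM in mates and 1207 to 3390 CPM in peers), 7 of 10 microglia markers (94.2 to 607 CPM and 141 to 622 CPM), 6 of 7 D1 and 3 of 7 D2 medium spiny neuron markers. The medians of the microglia, D1 and astrocyte sums were nevertheless higher in male mates (304, 1343 and 2236 CPM) than in male peers (285, 1265 and 2179 CPM). Those of the other lists were lower in male mates. The part of these shifts in the Gpc4 difference was not tested beyond the fixed makeup.

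The spread between animals was far above counting error for Gpc4 and Gpc5. The coefficient of variation within groups in all nuclei was 26.9% for Gpc4 and 31.4% for Gpc5, against 7.33% and 5.29% from counting alone, and counting accounted for 7.41% and 2.83% of the variance. It was lowest for Gpc1, at 10.8% with 3.72% from counting, and 20.8% for Gpc6 with 7.22% from counting. Gpc2 and Gpc3 varied most, at 63.4% and 65.3%, with 22.6% and 33.6% from counting. Within these classes, fewer UMIs made the counting error of Gpc4 larger. The Gpc4 spread was smaller than in all nuclei in glutamate neuron-like nuclei, at 22.0% (15.2% from counting). Male peer 5, at 15.2 CPM on 1 Gpc4 UMI, enters both of these values, which were not computed without it. The Gpc4 spread was larger in astrocyte-like nuclei, at 32.2% (14.5%), and in cluster 17, at 44.2% (32.4%). Counting accounted for 47.5%, 20.5% and 53.7% of the Gpc4 variance in these units. Gpc5 in astrocyte-like nuclei had a spread of 19.7% (5.79% from counting). These values cover UMI counting only and no other technical error.

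Among the 21 males, the all-nuclei level of Gpc4 followed the share of UMIs in cluster 5, the glutamate neuron-like cluster with most of the gene, with a Pearson r of 0.73 (permutation p = 0.00018, adjusted p = 0.00054 over 3 relations) and a Spearman rho of 0.64 (permutation p = 0.00238). Part of this relation is built in, since cluster 5 was rich in Gpc4 and its UMIs enter both measures. Its p therefore cannot separate a link from this built-in part. Without the 2 males of most extreme share, r was 0.48. Outside cluster 5, r was 0.48 (permutation p = 0.0279, adjusted p = 0.0419, rho 0.30, permutation p = 0.191) and 0.12 without those males, so that it rested on them. Gpc4 in astrocyte-like nuclei and in glutamate neuron-like nuclei showed no relation past the threshold over the 21 males, which include male mate 2 with fewer than 20 astrocyte-like nuclei (r = -0.17, permutation p = 0.457; rho -0.09, permutation p = 0.704; r without 2 males -0.18).

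Within classes the glypicans could be fitted 28 times over the 15 classes and clusters with at least 6 animals a group, of which 3 were of Gpc4. In males 0 of the 28, and in the other contrasts 0 of the 25 of the other glypicans, were called by edgeR or by DESeq2. In females, 1 of 95532 tests over all genes was called by edgeR (0.00105%) and 4.8% had an unadjusted p under 0.05, against 2 of 25 fits of the glypicans other than Gpc4. Both were Gpc6 in medium spiny neurons. In D2 medium spiny neuron-like nuclei it was 19.8 to 44.4 CPM with a median of 31.3 CPM in female mates and 11.2 to 35.0 CPM with a median of 21.8 CPM in female peers (log2 fold change 0.37, SE 0.17, p = 0.0402, adjusted p = 0.956 by edgeR). In D1 medium spiny neuron-like nuclei it was 27.0 ± 8.20 CPM and 20.8 ± 6.18 CPM in the same groups (0.38, SE 0.18, p = 0.0449, adjusted p = 0.840 by edgeR).

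In males, 0 of 95532 tests were called (0%) and 2.85% had an unadjusted p under 0.05 by edgeR, against 2 of 28 fits of the glypicans. Gpc6 in D2 medium spiny neuron-like nuclei had the direction opposite to that in females, with 28.5 ± 8.04 CPM in mates and 34.1 ± 6.93 CPM in peers (log2 fold change -0.35, SE 0.16, p = 0.0334, adjusted p = 1.00 by edgeR). The other was Gpc1 in immature neuron-like nuclei (log2 fold change -0.48, SE 0.17, p = 0.0077, adjusted p = 1.00 by edgeR). Male mates ranged from 60.5 to 281 CPM there, with a median of 214 CPM. The 9 male peers with enough nuclei ranged from 274 to 366 CPM with a median of 299 CPM, so that the groups overlapped only between 274 and 281 CPM. The lowest mate was male mate 2, with 23 of these nuclei. Counts were low, with a median of 17 Gpc1 UMIs per animal in this class. Over the 4 groups, the coefficient of variation within groups was 25.4%, against 27.3% from counting alone. For the pairing difference in females less that in males, 0 tests were called (0%) and 2.68% had an unadjusted p under 0.05 by edgeR, against 2 of 25 fits of the glypicans, the same genes and classes as in males. They were 0.72 (SE 0.24, p = 0.0039, adjusted p = 1.00) for Gpc6 in D2 medium spiny neuron-like nuclei and 0.50 (SE 0.24, p = 0.0418, adjusted p = 1.00) for Gpc1 in immature neuron-like nuclei.

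Between the sexes, 18 of 95532 tests were called (0.0188%) and 5.58% had an unadjusted p under 0.05 by edgeR, against 1 of 25 fits (4%) of the glypicans other than Gpc4. This was Gpc1 in cholinergic interneuron-like nuclei, higher in females, with 186 ± 33.3 CPM in 8 female mates, 217 ± 85.0 CPM in 6 female peers, 146 ± 21.6 CPM in 6 male mates and 129 ± 45.7 CPM in 6 male peers. Its log2 fold change was 0.47 (SE 0.17, p = 0.0072, adjusted p = 0.998 by edgeR). Gpc2 in immature neuron-like nuclei was at 123 ± 52.7, 137 ± 43.0, 101 ± 43.8 and 113 ± 67.8 CPM in female mates, female peers, male mates and male peers (9 of the last), and passed no test.

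The genes that make, modify or bind glypican chains were followed in 6 lists of 88 genes, of which 86 were listed and 80 could be tested in all nuclei. By edgeR and by DESeq2, 0 of the 80 were called in any contrast. In females 2 of 80 (2.5%) had an unadjusted p under 0.05 by edgeR, against 7.6% of all genes, in males 2 of 80 (2.5%) against 1.41%, in the difference of the pairing differences 0 of 80 against 1.95%, and between the sexes 6 of 80 (7.5%) against 8.18%. In the 579 fits within classes 0 were called, and 22, 11, 9 and 21 had an unadjusted p under 0.05 in these contrasts. These are 3.8%, 1.9%, 1.6% and 3.6% of the fits, beside 4.8%, 2.85%, 2.68% and 5.58% over all tests within classes. The lists were chosen with earlier results of these data known, and their counts support nothing about Gpc4.

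Chain synthesis, 12 genes from the first xylose transfer by Xylt1 and Xylt2 to chain elongation by Ext1 and Ext2, had a median log2 fold change of -0.01 in females and -0.00 in males, beside -0.01 and 0.00 over all genes. The lowest p in females were those of Pxylp1, a phosphatase of the linker region (-0.14, SE 0.09), and Xylt2 (0.14, SE 0.09), and in males those of Extl1 (0.21, SE 0.16) and Extl2 (-0.05, SE 0.07). Xylt1 was highest in oligodendrocyte precursor-like nuclei, at 1376 ± 189 CPM. Chain modification, with 16 of 18 genes tested, had medians of 0.04 and -0.01. Hs3st1, a sulfotransferase, was at 49.9 ± 8.71 CPM in female mates and 63.2 ± 10.5 CPM in female peers (-0.32, SE 0.15, p = 0.0334, adjusted p = 0.650 by edgeR) and was highest in mature oligodendrocyte-like nuclei, at 670 ± 145 CPM. Ndst1 followed in females (0.15, SE 0.08), and in males Ndst4 (-0.33, SE 0.37) and Hs3st2 (0.17, SE 0.21) had the lowest p.

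The list made for heparan sulfate and glypican cleavage had medians of 0.01 in both sexes over 10 genes tested. A place in this list does not mean that a gene cuts glypicans. The lowest p in females were those of Sulf1, a sulfatase of heparan sulfate (0.30, SE 0.18), and Furin (0.12, SE 0.10). In males they were those of Notum (-0.98, SE 0.41, p = 0.0209, adjusted p = 0.999 by edgeR) and Gde1 (-0.11, SE 0.11). Notum was at 0.383 ± 0.257 CPM in male mates and 0.768 ± 0.500 CPM in male peers. Gdpd2, of the family of enzymes that release glypicans from their anchor, was highest in astrocyte-like nuclei, at 582 ± 79.0 CPM. Over the other heparan sulfate proteoglycans the medians were -0.07 and -0.08 over 8 genes. Sdc4, a syndecan at 406 ± 85.9 CPM in astrocyte-like nuclei, had a log2 fold change of -0.38 (SE 0.20, p = 0.0699, adjusted p = 0.650 by edgeR) in females, and Col18a1, a collagen with heparan sulfate chains, one of -0.48 (SE 0.27, p = 0.0867, adjusted p = 0.999 by edgeR) in males. Agrn, the proteoglycan agrin, was the other gene named in both sexes (0.10, SE 0.09, and 0.07, SE 0.08).

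The synaptic partners, 13 genes tested, had medians of 0.05 and 0.04. Lrrtm3, a postsynaptic adhesion protein, was at 160.0 ± 23.5 CPM in female mates and 133 ± 29.5 CPM in female peers (0.27, SE 0.12, p = 0.0316, adjusted p = 0.650 by edgeR), a direction opposite to that of Gpc4, and Gpr158 followed (0.23, SE 0.13, p = 0.0717, adjusted p = 0.650 by edgeR). In males Lrrtm4 (0.15, SE 0.11) and Ptprs (0.11, SE 0.08) had the lowest p. Of the known receptors of Gpc4, Gpr158 and Lrrtm4 were far lower in astrocyte-like nuclei than in medium spiny neurons, where Gpc4 was low. Levels of these receptors in glutamate neuron-like nuclei, which held 45.3% of the Gpc4 UMIs, are not given here. Gpr158 was at 364 ± 62.3 CPM in eccentric medium spiny neuron-like nuclei and at 251 ± 41.2 CPM in those of D2 type, against 16.7 CPM in astrocyte-like nuclei, Lrrtm4 at 93.7 and 101 CPM in D1 and D2 medium spiny neuron-like nuclei against 3.27 CPM in astrocyte-like nuclei, whereas Ptprs was highest in cholinergic interneuron-like nuclei, at 1508 ± 278 CPM, and was at 435 CPM in astrocyte-like nuclei. Nptx1, the pentraxin whose release Gpc4 is known to promote, was highest in glutamate neuron-like nuclei, at 568 ± 113 CPM.

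The growth factor systems, with 21 of 23 genes tested, had medians of -0.00 and 0.01. The lowest p in females were those of Slit3, a guidance ligand (0.19, SE 0.10), and its receptor Robo1 (0.24, SE 0.14), and in males those of Igf2 (-1.36, SE 0.60, p = 0.0288, adjusted p = 0.999 by edgeR; 0.759 ± 1.02 CPM in mates and 1.85 ± 2.39 CPM in peers) and Bmp4 (-0.30, SE 0.24). Fgfr3, a fibroblast growth factor receptor, and Smo, the signal carrier of the hedgehog pathway, were highest in astrocyte-like nuclei, at 1125 ± 155 and 241 ± 52.5 CPM. Fgfr3 is also among the astrocyte markers that named this class, so its high level there is no separate result.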

How the data were processed

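Per the submitters' processing notes, libraries were processed with Cell Ranger 3.1.0. The deposited values are UMI counts, not normalized, for each gene in each barcode; genome build, annotation and mapping settings are not given in the sources used here. A barcode was kept with 500 UMIs or more, of which 5% or less came from 13 mitochondrial genes (185995 of 194518), and 7608 called doublets (4.09%, a rate assumed to grow with the barcodes of a library) were removed by a score against simulated doublets. Kept libraries held 2921854 to 13443968 UMIs, which sets the counting error given for each gene. Nuclei were clustered on 2000 variable genes and 30 principal components, both from custom code, and the glypicans were kept out of the variable genes. The 15 neighbours came from pynndescent 0.6.0, the graph from umap-learn 0.5.12 and the Leiden clusters (resolution 1) from igraph 0.11.9. Clusters were named from marker lists by their mean log2 fold (pseudocount 5 CPM) with at least 3 markers up by at least 1. Counts were summed per animal, over all nuclei and per class (at least 20 nuclei, at least 6 animals a group), and tested with edgeR 4.0.16 in R 4.3.3 (quasi-likelihood, TMM factors, its filter on low counts, 1 mean per group, Benjamini-Hochberg over all genes of a fit, calls at an adjusted p under 0.05), with DESeq2 1.42.0 as an alternative; the tests were checked on simulated counts. The SE of an edgeR log2 fold change is its absolute value over the square root of the quasi-likelihood F. It was thus derived from the test and need not match the p beside it exactly. Gpc4 at a fixed makeup was compared by permutation. Named were the 6 glypicans, their 3 most alike genes and 3 highest clusters, and per pathway list the called genes or otherwise the 2 of lowest p per sex. The remaining gene like Gpc1 carried no symbol. The sex contrast of Gpc4, planned as a test, is given as a description because it contains the female values. Members, lists and tests were chosen with earlier results of these data known. The alternatives were DESeq2, no count filter, doublets kept, blocks of 10 label numbers, single libraries left out, male mate 2 and female peer 1 left out within classes, at least 50 nuclei, a clustering resolution of 2, and other weights for the fixed makeup. RefSeq (MicOch1.0, all 6 symbols matched) was used for neighbours only, and no sequences or coordinates are given.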

Additional observations from a re-analysis of the deposited data

Results flagged for a closer look

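In 2 places a single library lay far from the others of its group. In all nuclei, Gpc2 in male peer 8 was 7.75 CPM, on 84 UMIs, against 3.14 CPM in the next of the 10 male peers. In glutamate neuron-like nuclei, Gpc4 in male peer 5 was 15.2 CPM, on 1 UMI, against 45.9 CPM in the next lowest male peer. Chance gives such a gap in about 1 in 20 groups, and 36 groups were looked at.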

How the results depend on the processing

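Over 60 glypican results and 1388 alternative values, 0 tested values were called and 65 had the other sign, in 12 results, of which 11 had a main value within 1 SE of 0. Within classes, with no filter on low counts, edgeR called 14 tests in females (main count 1), 16 in males (main count 0) and 7 for the difference of the pairing differences (main count 0), and a clustering resolution of 2 gave 2 in females. Between the sexes in all nuclei DESeq2 called 5 genes against 2. The causes were not tested. Gpc3 between the sexes was -0.018 with blocks of 10 label numbers and -0.047 with doublets kept (main value 0.09). With doublets kept, Gpc5 in the difference of the pairing differences was 0.0082 (main value -0.01), and at a resolution of 2 Gpc4 in male astrocyte-like nuclei was -0.0062 (main value 0.04). Leaving out single libraries changed signs within these log2 ranges in all nuclei: Gpc1 in females -0.022 to 0.046, in males -0.0050 to 0.062 and in the difference of both -0.053 to 0.018, Gpc2 in males -0.11 to 0.50, Gpc3 in the difference of both -0.11 to 0.44 and between the sexes -0.095 to 0.18, Gpc5 in the difference of both -0.10 to 0.094, and Gpc6 between the sexes -0.038 to 0.040. In immature neuron-like nuclei, Gpc1 in females ranged from -0.026 to 0.028, and Gpc2 from -0.38 to 0.0092 in males and from -0.21 to 0.17 in the difference of both, the sign of Gpc2 turning without male peer 8. Leaving out male peers 5 and 8 within classes, leaving out each library from the Gpc4 contributions and from the Gpc4 ratio in cluster 17, and taking the observed makeup over 15 units were chosen after seeing the data. At a fixed makeup the Gpc4 difference was -7.42 CPM in females and -3.80 CPM in males with equal class weights, and -6.02 and -2.42 CPM by cluster. No paired analysis was possible because the groups share no replicate numbers that mark a common source and partners are not named. Gpc2, Gpc3 and values in small classes are limited by depth.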
